A study of Leptinotarsa decemlineata with 61 samples.

Results

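The aedeagus of adult male Colorado potato beetles (Leptinotarsa decemlineata) was compared with the male genital ducts. The 6 samples, 3 of aedeagus (2, 4 and 5) and 3 of genital ducts (1, 4 and 5), were chosen by their titles and library names out of 61 in the expression table of the gene atlas. The beetles were untreated and wild type, of the E06 strain, were reared on potato leaves and were dissected 7 days after adult emergence. Each sample was prepared from a single male. It is not stated whether samples of both tissues with the same number came from the same male. The tissue field of the labels names another sample type for 4 of these 6 libraries, so the titles were followed. The values are TPM, which are read counts corrected for gene length and scaled to the same total in each library.

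In male insects, sperm leave the testes through the genital ducts, which in many species receive seminal fluid from glandular parts of the tract. The aedeagus is the intromittent organ through which the ejaculate is transferred to the female. It is a cuticle-bearing structure with muscle attached, so its dissection can include epidermal, muscle, tracheal and fat tissue. Proteins of the seminal fluid are often small and secreted, and their genes often lie in clusters in insect genomes.

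The file does not pair its gene IDs with names, and 0 of its 15578 IDs matched the RefSeq gene table at hand. Genes are therefore described by position, exon number, summed exon length and expression in the other tissues, and no function is given for any of them. Positions are those of the authors' table, on a chromosome-level assembly; no source used here gives its build name. Because gene names were lacking, the 2 sample types could not be checked against known marker genes. The libraries held 13695555 to 15254387 read pairs on genes in aedeagus and 9913155 to 12220077 in genital ducts, in a series that spans 9913155 to 18579970. A single read pair on a gene of median length corresponded to 0.0587 to 0.0647 TPM in aedeagus and 0.0898 to 0.122 TPM in genital ducts.

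Aedeagus 2 and genital ducts 4 stood apart from their replicates through the same genes. The set holds 32 genes that reached 10 TPM or more in both libraries and were there at least 10 times the highest value of the other 4 libraries. Their summed level was 189927 TPM in aedeagus 2 and 161070 TPM in genital ducts 4. It was 438 and 294 TPM in aedeagus 4 and 5, and 467 and 130 TPM in genital ducts 1 and 5. The set thus held 19.0% of all TPM in aedeagus 2 and 16.1% in genital ducts 4. Of its genes, 26 were at 10 TPM or below in all 4 replicates, and the highest value there was 313 TPM. The other 14 pairs among the 6 libraries gave 0 to 6 such genes.

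The most abundant member of the set, at chr15:30760406-30767145 with 3 exons, was at 46987 TPM in aedeagus 2 and 32408 TPM in genital ducts 4. It was at 3.66 to 13.4 TPM in the other 4 libraries, and it overlaps a gene on the opposite strand. Several members are neighbours: 4 genes lie at chr16:22357877-22397963 and 2 at chr17:13936053-14032998. In the rest of the atlas the set was high in 2 of the 3 male malpighian tubule libraries, the excretory organ, with 47731 TPM in male 3 and 27861 TPM in male 4. This holds for part of the set, since 22 and 21 of the 32 genes exceeded 10 times the highest female tubule value there and 7 were below 10 TPM in both. In the other 52 libraries outside the 6 and the male tubules the sum stayed between 50.9 and 2761 TPM. Since TPM have a fixed total, this share lowers the TPM of all other genes in those libraries. Counts of calls and summed levels that rest on them are given below also without both libraries or without the set.

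**Figure D1:**
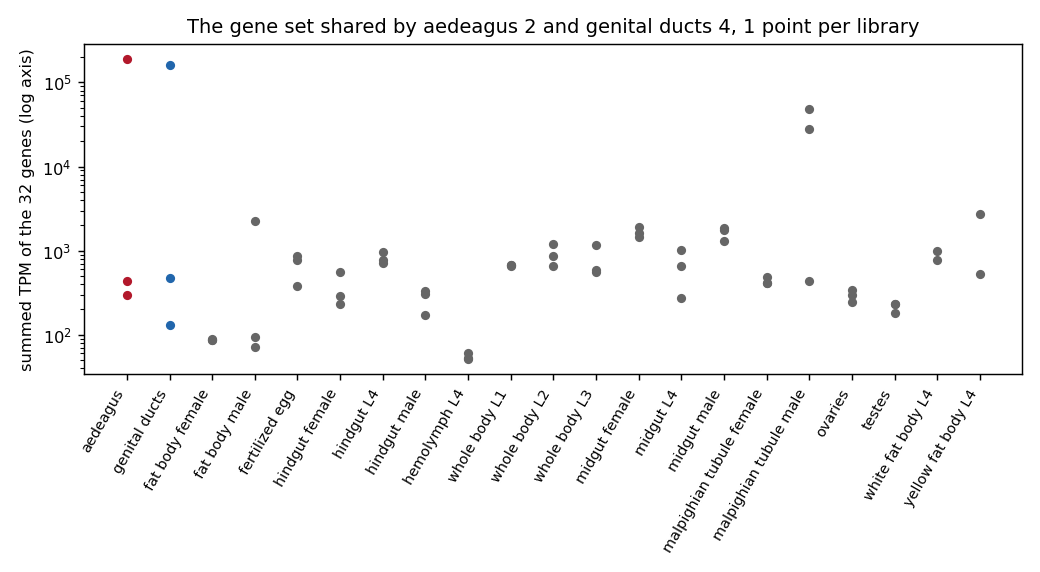
Summed TPM of the 32 genes shared by aedeagus 2 and genital ducts 4, on a log axis, with 1 point for each of the 61 libraries by sample type. Aedeagus 2 and genital ducts 4 lie highest, at 189927 and 161070 TPM, male malpighian tubules 3 and 4 lie at 47731 and 27861 TPM, and the other aedeagus and genital duct libraries lie between 130 and 467 TPM.

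The libraries nevertheless grouped by tissue. The Euclidean distance on log2(TPM + 1) over all genes was 77.5 to 97.5 among aedeagus libraries and 71.3 to 109 among genital duct libraries. Between the tissues it was 148 to 175, so the lowest distance between tissues exceeded the highest within either. Aedeagus 2 and genital ducts 4 were 159 apart, close to the mean between the tissues of 161 ± 8.19 (SD over 9 pairs). Among the 7 other dissected tissues, both lay nearest to the hindgut, at a mean distance of 200 ± 9.99 for aedeagus and 191 ± 10.5 for genital ducts (SD over 24 pairs each). The hindgut, like the aedeagus, is lined with cuticle, but whether this bears on the distances was not tested. Both lay farthest from the testes, at 320 and 323, although these belong to the same male tract.

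More genes were detected in aedeagus. There were 9579, 9719 and 10025 genes above 1 TPM in aedeagus, and 9290, 9286 and 9276 in genital ducts. The mean difference was 490 genes (two-sided exact permutation test, p = 0.10, the smallest that 3 against 3 samples allow). After thinning all 6 libraries to the depth of the shallowest, the difference was 492 genes. Above 10 TPM the order turned round, with 5525 to 5773 genes in aedeagus and 5718 to 5817 in genital ducts (exact permutation p = 0.20). The RNA of the aedeagus was also more concentrated in a few genes, since the 10 most abundant made up 20.3, 24.5 and 29.9% of TPM in aedeagus against 17.4, 18.1 and 18.8% in genital ducts (exact permutation p = 0.10). In aedeagus 2 and genital ducts 4, 6 and 5 of these 10 genes belonged to the shared set.

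Of 10404 genes tested, 1352 (13.0%) were higher in aedeagus and 2806 (27.0%) were higher in genital ducts (limma on log2(TPM + 1), Benjamini-Hochberg adjusted p below 0.05). The median over all genes tested was -0.23 on the log2 scale, so differences are shifted towards the ducts. When TPM were rescaled by median-of-ratios factors, which centre the median at 0.04, the split became 1840 higher in aedeagus and 1678 higher in genital ducts. The share of calls in favour of aedeagus thus moved from 32.5 to 52.3%. None of the calls changed direction. Genes called in the same direction on both scalings were 1350 higher in aedeagus (13.0%) and 1678 higher in genital ducts (16.1%), and the counts below refer to these unless stated. Of them, 1090 and 1594 were also called without aedeagus 2 and genital ducts 4. In bulk tissue, fewer cells of a type and less RNA per cell cannot be told apart.

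The 2 directions differed in shape. The genes higher in aedeagus included 254 with a difference of 3 or more on the log2 scale and 89 of 5 or more, whereas those higher in genital ducts included 101 and 13. A total of 84 genes were above 10 TPM in every aedeagus library and below 1 TPM in every genital duct library, and 12 genes showed the opposite. The 89 genes with the largest differences together made up 15.0, 23.4 and 30.8% of all TPM in aedeagus 2, 4 and 5 and 0.0161 to 0.0251% in genital ducts. The 13 genes of the opposite kind made up 1.16 to 2.12% of TPM in genital ducts and 0.0258 to 0.0444% in aedeagus.

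**Figure D2:**
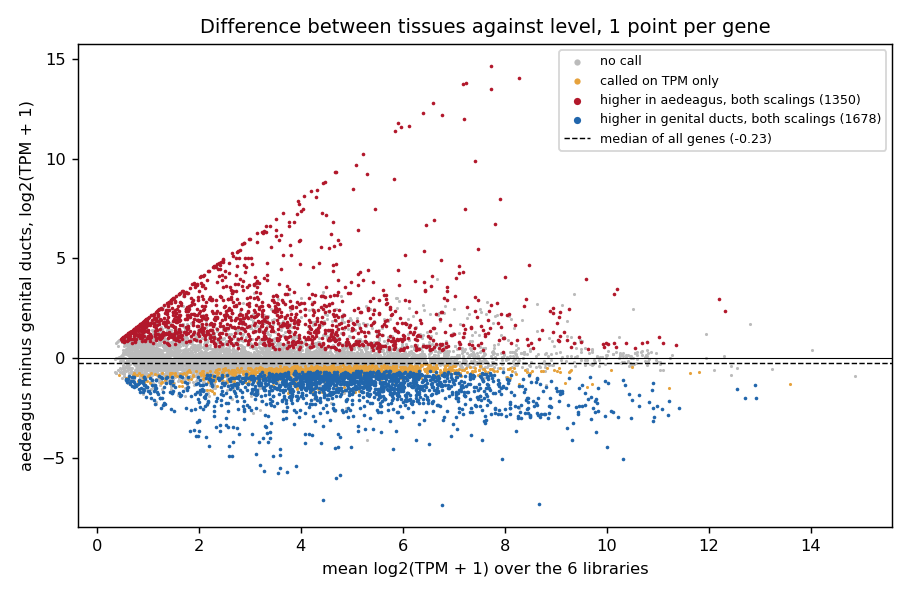
Difference between aedeagus and genital ducts on the log2(TPM + 1) scale (vertical) against the mean level over the 6 libraries (horizontal), with 1 point for each of 10404 genes. Red and blue points are called on both scalings, orange points on TPM only, and the dashed line is the median of all genes at -0.23. The upper edge, up to 14.66, reaches much farther from 0 than the lower edge at -7.37.

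The 10 genes with the largest differences in favour of aedeagus were short genes of very high level. Their values lay between 2595 and 54884 TPM in aedeagus and between 0 and 3.74 TPM in genital ducts. Of them, 8 were shorter than 600 bp, all had 2 to 4 exons, and they lie on 6 chromosomes. LdNA_21997, at chr11:17529554-17531651 with 2 exons and 348 bp, was at 19611, 37374 and 54884 TPM in aedeagus 2, 4 and 5 and at 0.41, 0.62 and 0.00 TPM in genital ducts 1, 4 and 5. These values rest on 510477 read pairs in aedeagus and 3 in genital ducts. The difference was 14.66 on the log2(TPM + 1) scale (95% confidence interval 13.70 to 15.63, limma adjusted p = 2.21e-05).

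LdNA_24897, at chr13:143423-145667 with 2 exons and 276 bp, had the highest mean level of the genes called higher in aedeagus. It was at 28943, 45046 and 51700 TPM in aedeagus and at 0.52, 0.79 and 3.74 TPM in genital ducts. The difference was 14.08 (12.95 to 15.22, limma adjusted p = 2.97e-05). It overlaps another gene of the table on the same strand, so the assignment of reads in the overlap is uncertain. The gene at chr14:41969373-41970188 was at 11539, 26929 and 38585 TPM against 0.28, 1.04 and 1.99 TPM. The gene at chr7:27102268-27112627 was at 2595, 4330 and 3992 TPM in aedeagus and had 0 read pairs in all 3 genital duct libraries. Aedeagus 2 was the lowest aedeagus library in 9 of the 10 genes.

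Outside the comparison the 10 genes were highest in fat body libraries and in 1 hindgut library. Their summed level was 5273 TPM in male fat body 1, 1073 TPM in female hindgut 4 and at most 621 TPM in each of the remaining tissue libraries. Among the 89 genes with a difference of 5 or more, male fat body 1 was the highest of the 41 other tissue libraries in 34.

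The 10 genes with the largest differences in favour of the genital ducts were of lower level. Their values ran from 21.7 to 7069 TPM in genital ducts and up to 65.2 TPM in aedeagus, they lie on 8 chromosomes, and they had 2 to 10 exons. LdNA_3476, at chr2:14092251-14099163 with 6 exons and 465 bp, was at 1287, 1119 and 1900 TPM in genital ducts 1, 4 and 5 and at 7.33, 4.76 and 11.6 TPM in aedeagus. The means of 1436 ± 411 and 7.90 ± 3.46 TPM (SD, n = 3 each) differed 182-fold, or by -7.37 on the log2(TPM + 1) scale (-8.18 to -6.56, limma adjusted p = 8.31e-05). Its median in testes was 147 TPM, while it was at 0.105 TPM or below in the 6 other tissues.

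LdNA_31995, at chr17:10643883-10683108 with 3 exons and 696 bp, was at 7069, 3662 and 5348 TPM in genital ducts and at 22.2, 65.2 and 20.7 TPM in aedeagus. The means differed 149-fold, with a log2 difference of -7.33 (-8.50 to -6.16, limma adjusted p = 2.01e-04). In the 7 other tissues its median reached at most 8.97 TPM, in hindgut. The gene at chr1:7829263-7852833 was at 206, 245 and 181 TPM in genital ducts against 3.25, 2.03 and 1.56 TPM in aedeagus, a 92.4-fold difference of means, and had a median of 285 TPM in midgut. The gene at chr6:56650583-56716280 was at 220, 143 and 291 TPM against 3.13, 2.67 and 1.97 TPM and stayed at or below a median of 1.57 TPM elsewhere. These 4 genes were high in every genital duct library. Among the other tissues, LdNA_3476 had its highest median in testes and the gene at chr1:7829263-7852833 in midgut. The remaining genes had low medians in all of them. Of the 10 genes, 2 overlap a gene on the opposite strand, and because the libraries were not strand-specific their values are uncertain.

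**Figure D3:**
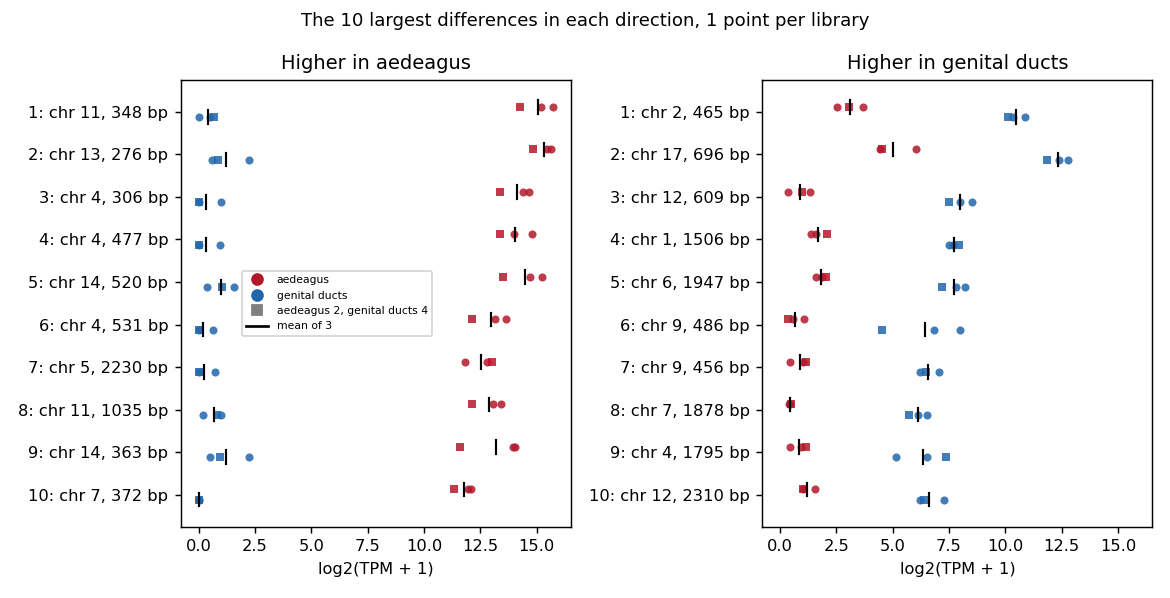
Level of the 10 genes with the largest difference in each direction, as log2(TPM + 1), with 1 point per library (red, aedeagus; blue, genital ducts; squares, aedeagus 2 and genital ducts 4) and the mean of 3 as a black line. In the left panel the genital duct values lie at 3.74 TPM or below, and in the right panel the aedeagus values reach 65.2 TPM. Genes whose groups overlap were left out by the rule that chose these.

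The most abundant genes of the genital ducts differed far less between the tissues. The gene at chr17:2145480-2148237 was at 20292, 14067 and 25940 TPM in genital ducts and at 5048, 12530 and 7436 TPM in aedeagus. It was called on TPM (log2 difference -1.33, limma adjusted p = 0.0439) but not after rescaling (adjusted p = 0.0903). The gene at chr6:373587-387969 was at 17884, 12078 and 17970 TPM against 3341, 4877 and 3672 TPM, and the gene at chr1:5796082-5813771 was at 14566, 11135 and 15211 TPM against 3066, 3887 and 3085 TPM. Both were about equally shifted, 4.03-fold and 4.08-fold, and were called on both scalings. They are also abundant elsewhere, with hindgut medians of 6590 and 6670 TPM.

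Both tissues shared a body of abundant genes. A total of 83 genes were above 1000 TPM in all 6 libraries, and of these 8 (9.64%) were higher in aedeagus and 6 (7.23%) in genital ducts, both below the shares of 13.0 and 16.1% over all genes tested. The split depended on the scaling, with 8 and 11 on TPM and 30 and 6 on rescaled values. The gene at chr9:51722300-51723950, with 1 exon, was at 15100, 31310 and 22158 TPM in aedeagus and 44058, 29619 and 54962 TPM in genital ducts. It was among the 10 most abundant genes of all 6 libraries, and its groups overlapped (log2 difference -0.93, interval -1.87 to 0.02, limma adjusted p = 0.106). The gene at chr6:61083380-61086857 was at 3968 ± 472 TPM in aedeagus and 3963 ± 517 TPM in genital ducts (SD, n = 3 each), with an interval of the log2 difference from -0.44 to 0.45.

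On chromosome 4 a pair of abundant genes lay close together and differed in opposite directions. The gene at chr4:14609475-14616896 was at 11291, 13863 and 9669 TPM in aedeagus and 2783, 1484 and 2807 TPM in genital ducts, a 4.92-fold difference of means (log2 difference 2.34, limma adjusted p = 0.00218). The gene at chr4:14647859-14672617 was at 4069, 6369 and 4154 TPM in aedeagus and 13954, 9682 and 13939 TPM in genital ducts, 2.57-fold higher there (log2 difference -1.38, limma adjusted p = 0.00951). Neither gene had overlapping groups, and both had their highest median among the other tissues in hindgut, at 6641 and 2292 TPM.

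Genes with a low median in all other tissues, called silent here, were next considered. Single libraries can exceed the limit, as for a member at chr16:22382578-22390175, at 4927 TPM in male malpighian tubules 3. The list holds 1925 genes with a median of at most 1 TPM in each of the 7 other tissues, and 410 of them passed the filter of the test. Of these, 121 were higher in aedeagus and 62 in genital ducts, which is 29.5 and 15.1% beside 13.0 and 16.1% of all genes tested. On TPM the counts of 121 and 75 became 120 and 64 without aedeagus 2 and genital ducts 4. The median difference of the list was 0.01, against -0.23 over all genes. Since such a gene passes the filter through the tissue in which it is present, the shares describe the list only. The summed level of the list was 94244, 27050 and 31397 TPM in aedeagus and 2690, 69467 and 2879 TPM in genital ducts (exact permutation p = 0.5). Without the members in the shared set, the sums were 10797, 26967 and 31369 TPM against 2597, 2252 and 2808 TPM (exact permutation p = 0.10). The groups no longer overlapped, but the set was chosen from these same libraries, so this p describes the remaining members only. The highest such gene of the aedeagus, at chr14:41973205-41973781 with 2 exons, was at 3117, 15914 and 16789 TPM against 0.40, 0.90 and 3.66 TPM. It reached 69.1 TPM in male fat body 1. In genital ducts the largest difference of this list belonged to the gene at chr2:18703264-18729446, with 10 exons, at 53.3, 29.3 and 24.3 TPM against 0.28, 0.08 and 0.09 TPM.

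Broadly expressed genes were called more often in favour of the genital ducts. This list holds 2677 genes with a median above 10 TPM in each of the 7 other tissues, and all of them were tested. Of them, 666 (24.9%) were higher in genital ducts and 138 (5.16%) in aedeagus, beside 16.1 and 13.0% of all genes tested. Their median difference was -0.37 on TPM and -0.06 after rescaling, beside -0.23 and 0.04 over all genes tested. Together they made up 372981, 395555 and 351939 TPM in aedeagus and 603398, 532020 and 602006 TPM in genital ducts (exact permutation p = 0.10). The groups did not overlap. Since TPM have a fixed total, these sums fall where genes outside the list rise. The 89 genes higher in aedeagus by 5 or more held 15.0, 23.4 and 30.8% of TPM in aedeagus 2, 4 and 5. How far this bears on the difference was not tested. On rescaled values alone, 353 were higher in aedeagus and 666 in genital ducts. The count of 138 in aedeagus fell to 81 without aedeagus 4, 78 without genital ducts 1 and 82 without genital ducts 5. Without aedeagus 2 and genital ducts 4, the TPM counts of 138 and 1148 became 150 and 945. For the most abundant members the direction depended on the scaling. Among 137 genes above 200 TPM in each other tissue, 15 (10.9%) were higher in aedeagus and 33 (24.1%) in genital ducts on TPM. Over all genes tested these shares were 13.0 and 27.0%. On rescaled values the calls were 52 and 26, beside 1840 and 1678 among all 10404 genes tested. A member at chr1:63899184-63903154, with a median of 502 TPM or more in each other tissue, was at 7185, 5028 and 7441 TPM in genital ducts and 1028, 1343 and 1096 TPM in aedeagus, a 5.67-fold difference (log2 difference -2.49, limma adjusted p = 4.99e-04).

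**Figure D4:**
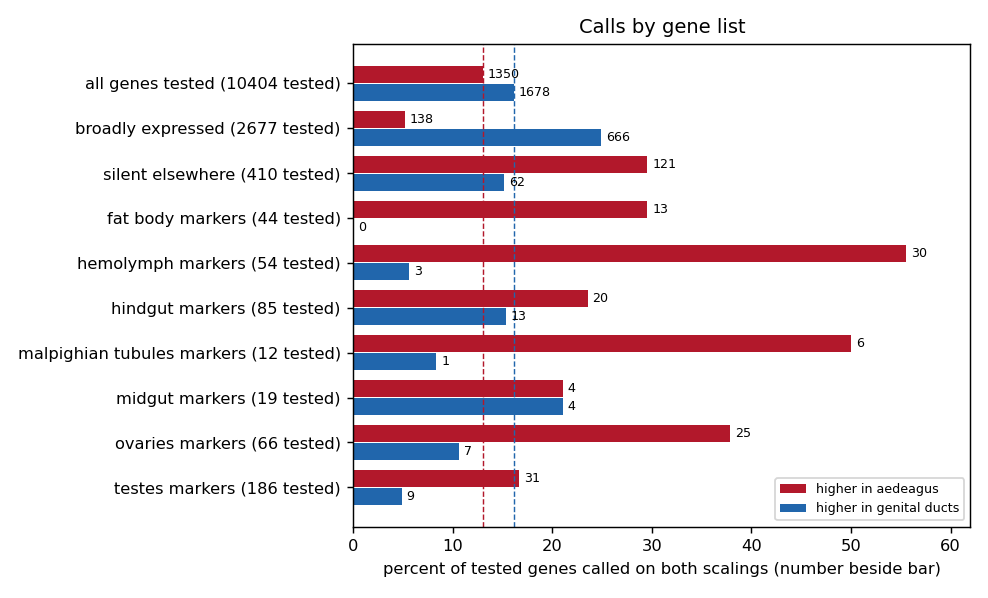
Percent of the tested genes of each list that were called on both scalings, with the number of genes beside each bar (red, higher in aedeagus; blue, higher in genital ducts). Dashed lines are the values over all genes tested, 13.0 and 16.1%. Broadly expressed genes lie above the blue line, and hemolymph markers reach 55.6% in favour of aedeagus with 54 genes tested.

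Markers of the 7 other tissues were then followed, since a dissected organ can carry other cells. A marker was a gene with tau, an index of tissue specificity that runs from 0 to 1, above 0.85 over those tissues and a median above 10 TPM in the highest of them. Of 1923 markers, 466 passed the filter, and 129 of these (27.7%) were higher in aedeagus and 37 (7.94%) in genital ducts, beside 13.0 and 16.1% of all genes tested. A marker that is low in both tissues fails the filter, and 1134 were below 1 TPM in all 6 libraries, so the counts over tested markers describe those present in at least 1 of the tissues and are no measure of a whole list. Summed levels were low beside those of the tissues themselves for most lists. Midgut markers reached 61.1 to 80.4 TPM in aedeagus and 40.8 to 62.8 TPM in genital ducts, against at least 243166 TPM in midgut libraries. Of 19 midgut markers tested, 4 (21.1%) were higher in each tissue. Testes markers reached 865 to 2419 TPM and 2174 to 2420 TPM, against at least 363545 TPM in testes. Of 186 testes markers tested, 31 (16.7%) were higher in aedeagus and 9 (4.84%) in genital ducts, and on TPM the 31 became 20 without aedeagus 5, 20 without genital ducts 5, 48 without aedeagus 4 and 20 without both aedeagus 2 and genital ducts 4. LdNA_3476 alone supplied 1119 to 1900 TPM of the sum in genital ducts, and without it the order of the means turned round, to 1603 TPM in aedeagus and 876 TPM in genital ducts.

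Markers of hemolymph, which were chosen in larvae, had a higher summed level in every aedeagus library than in any genital duct library. Of 105 markers, 54 were tested. Of these, 30 (55.6%) were higher in aedeagus and 3 (5.56%) in genital ducts, beside 13.0 and 16.1% of all genes tested. On TPM the 30 became 24 without aedeagus 2 and genital ducts 4, 13 with a filter of 5 TPM, 13 with the replicate number as a block and 14 at tau above 0.90. The sums were 518, 797 and 708 TPM against 165, 279 and 278 TPM (exact permutation p = 0.10). In larval hemolymph the sum was at least 46103 TPM. The most abundant called member, at chr15:27414238-27431030, was at 202, 308 and 322 TPM in aedeagus and 1.13, 1.45 and 0.27 TPM in genital ducts, and its level in aedeagus exceeded its hemolymph median of 35.6 TPM. The list without this gene still gave non-overlapping sums, 316 to 489 TPM against 164 to 277 TPM.

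Hindgut markers were present in both tissues. Of 127 markers, 44 were above 10 TPM in every aedeagus library and 35 in every genital duct library. Their sums were 10903, 9926 and 9930 TPM in aedeagus and 8549, 6274 and 6564 TPM in genital ducts, against at least 54390 TPM in hindgut. Of 85 tested, 20 (23.5%) were higher in aedeagus, beside 13.0% of all genes tested. In genital ducts 13 (15.3%) were higher, near the 16.1% of all genes tested. On TPM the counts of 20 and 15 became 27 and 12 without aedeagus 2 and genital ducts 4. The most abundant called member, at chr15:29671898-29673759, was at 2973, 1544 and 2676 TPM in genital ducts and 432, 452 and 240 TPM in aedeagus, a 6.40-fold difference, and it overlaps another gene on the same strand.

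Of 50 fat body markers, 44 were tested. Of these, 13 (29.5%) were higher in aedeagus and 0 in genital ducts, beside 13.0 and 16.1% of all genes tested. In genital ducts the count was also 0 at an unadjusted limma p below 0.05 and with voom. The 13 became 7 with a filter of 5 TPM, 8 at tau above 0.90 and 1 where a median above 50 TPM was required of a marker. The sums were 59357, 102517 and 153077 TPM in aedeagus and 61.5, 17.4 and 95.2 TPM in genital ducts. Nearly all of this came from 6 members above 1000 TPM in every aedeagus library, which include LdNA_21997. Their summed level was 59289 to 152875 TPM in aedeagus but 74.1 to 2662 TPM in adult fat body and at most 0.877 TPM in larval fat body, so their highest levels were in aedeagus and the name of the list does not describe them. The other 44 markers summed to 68.4, 387 and 202 TPM in aedeagus and 58.5, 15.0 and 92.2 TPM in genital ducts. There the groups overlapped (exact permutation p = 0.20). The 6 were set apart by their level in aedeagus, so this p describes the remaining markers only. Of the 38 tested among the other 44 markers, 7 (18.4%) were higher in aedeagus and 0 in genital ducts. Without aedeagus 2, the count for the whole list rose from 13 to 24, and without aedeagus 2 and genital ducts 4 it was 17.

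Summed levels of tubule and ovary markers depended on the libraries that stand apart. With all members, the exact permutation p of the sums was 0.6 for tubule and 0.5 for ovary markers. Genes left out of the sums below were chosen after their values were seen, so p-values without them describe the remaining genes only. Only 12 of 98 tubule markers passed the filter, of which 6 were higher in aedeagus and 1 in genital ducts. Of 284 ovary markers 66 passed, of which 25 (37.9%) were higher in aedeagus and 7 (10.6%) in genital ducts. For both lists the shares to compare are the 13.0 and 16.1% of all genes tested. The counts describe only markers present in at least 1 of the tissues, and for tubules they rest on 12 genes. On TPM the 25 became 15 without aedeagus 4, 16 without aedeagus 5, 15 without genital ducts 1, 13 without genital ducts 5 and 32 without both libraries that stand apart. For tubule markers the 7 calls on TPM became 4 without aedeagus 2, genital ducts 1, genital ducts 4 or both libraries that stand apart. Malpighian tubule markers summed to 16633, 380 and 317 TPM in aedeagus and 346, 13849 and 67.1 TPM in genital ducts. A single gene of the shared set, at chr9:5956197-5960227, supplied 16489 and 13807 TPM of this in aedeagus 2 and genital ducts 4. Without it the sums were 97.8 to 144 TPM in aedeagus and 33.1 to 42.1 TPM in genital ducts (exact permutation p = 0.10). Ovary markers summed to 8987, 2164 and 2098 TPM against 377, 4298 and 350 TPM, and without the most abundant member, which is also in the shared set, to 2098 to 2599 TPM against 349 to 564 TPM (exact permutation p = 0.10). Among the ovary markers, the gene at chr5:35435924-35436370, with 1 exon, was at 541, 882 and 567 TPM in aedeagus and 14.8, 33.5 and 62.8 TPM in genital ducts, 17.9-fold higher in aedeagus and also above its ovary median of 46.5 TPM.

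Seen across the atlas, genes called in favour of either tissue differed in where else they were high. Aedeagus was above all 7 other tissues in 33.9% of the genes higher in aedeagus (458 of 1350), beside 10.9% of all genes tested. Genital ducts were above all 7 in 47.3% of the genes higher there (794 of 1678), beside 14.8% of all genes tested. Since the called genes were chosen for a high level in that tissue, shares above those of all genes follow in part from the choice. Among the other tissues, fat body was the highest for 21.9% of the genes higher in aedeagus and for 1.49% of those higher in genital ducts, beside 7.31% of all genes tested. Testes were the highest for 14.5 and 27.8%, and hemolymph for 14.3 and 24.9%, beside 25.5 and 21.9% of all genes tested.

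Part of the called genes lay side by side in the table. Neighbours are consecutive genes of the table by start, and annotated genes that the authors filtered out can lie between them. Counting calls on TPM, 424 of the 1352 genes higher in aedeagus (31.4%) lay in 178 runs of neighbouring genes called the same way, and 1285 of 2806 genes higher in genital ducts (45.8%) lay in 538 runs. These shares rise with the number of calls. The share that the call rate alone would give was not computed, so they are a description. The longest run in favour of aedeagus held 8 genes at chr4:54440874-54581935. Its summed level was 16108, 29477 and 44894 TPM in aedeagus and 3.15, 2.27 and 0.00 TPM in genital ducts. The members differed widely, from 10795, 16452 and 28296 TPM at chr4:54523934-54529842 down to 2.23, 2.64 and 4.92 TPM at chr4:54532564-54541594. Both strands are represented, and the genes have 2 to 4 exons. A further run of 3 genes follows at chr4:54615641-54665034 with 11394, 22974 and 28284 TPM against at most 2.49 TPM. The single gene between the runs, at chr4:54594660-54608105, was at 65.7, 12.2 and 9.56 TPM in aedeagus and 1.95, 34.5 and 0.14 TPM in genital ducts and was not called. Its highest values in each tissue were those of aedeagus 2 and genital ducts 4.

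**Figure D5:**
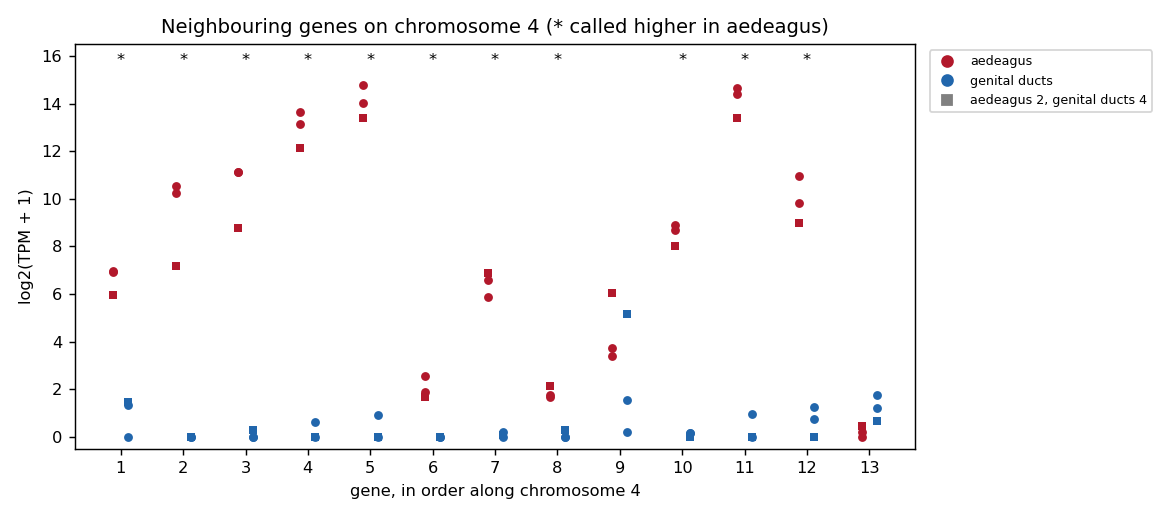
Level of 13 consecutive genes of the table on chromosome 4, as log2(TPM + 1), in the order of their start, with 1 point per library (red, aedeagus; blue, genital ducts; squares, aedeagus 2 and genital ducts 4). Asterisks mark genes called higher in aedeagus on TPM. Genes 1 to 8 form the longest run and genes 10 to 12 the next one, and in gene 9 aedeagus 2 and genital ducts 4 lie above their replicates.

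Other clusters of abundant genes were also higher in aedeagus. At chr13:143423-182358, 5 neighbouring genes, with LdNA_24897 among them, summed to 29115, 45483 and 52315 TPM against 1.38 to 5.63 TPM. At chr14:41969373-41976615, 3 genes of 363 to 520 bp on the same strand summed to 14941, 45131 and 58571 TPM against 0.67 to 11.3 TPM. At chr11:17511925-17560245, 4 genes including LdNA_21997 summed to 19805, 37796 and 55834 TPM against 0.41 to 0.69 TPM. In these 3 clusters aedeagus 2 had the lowest sum of the aedeagus libraries. At chr5:35310734-35451981, 6 genes summed to 12754, 17849 and 24537 TPM in aedeagus, but here the genital ducts were not silent, with 1903, 1994 and 2215 TPM.

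Runs in favour of the genital ducts were more numerous, as were the calls on TPM from which they were counted, and lower in level. The longest held 6 genes each, on chromosomes 2, 3, 7 and 14, of which 3, 4, 5 and 6 were called on both scalings. The run at chr7:736773-916279 summed to 103, 83.7 and 117 TPM in genital ducts and 23.5, 21.3 and 16.7 TPM in aedeagus. Within it the gene at chr7:827190-916279, with 9 exons, was at 60.1, 42.4 and 74.2 TPM against 0.72, 2.26 and 1.71 TPM, 37.7-fold higher in genital ducts, and it overlaps other genes, on both strands. The highest contrast among the abundant runs was a pair at chr7:57175197-57279748, at 10084, 4678 and 8592 TPM in genital ducts against 168, 323 and 201 TPM in aedeagus. In no other tissue library did this pair sum to more than 140 TPM.

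The share of calls varied with gene length and chromosome. Genes below 600 bp were higher in aedeagus in 16.4% and those above 2000 bp in 9.30%, while the shares higher in genital ducts were 16.1 and 15.4%. Among the genes with a difference of 3 or more in favour of aedeagus, 33.5% were below 600 bp, beside 18.2% of all genes tested. By chromosome, the share higher in genital ducts was highest on chromosome 6 at 20.9% (117 of 560 genes), with a median difference of -0.39 on TPM and -0.13 after rescaling. The share higher in aedeagus was highest on chromosome 13 at 18.9% (79 of 418 genes) and lowest, among the 18 chromosomes, on chromosome 17 at 7.05% (21 of 298 genes).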

How the data were processed

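RNA was extracted from single dissected organs, selected with poly(dT) beads and sequenced as read pairs in non-directional libraries. According to the methods of the study, reads were trimmed with Trimmomatic, aligned with STAR and counted per gene with featureCounts (Subread 2.0.5). The authors deposited TPM for genes above 1 TPM in at least 2 samples, with the table still holding 2 libraries they later removed, which were left out of tissue medians and marker lists here. There were 0 unmapped columns. Multiplying TPM by gene length gave whole read pairs for 100% of values, within 0.01.

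Aedeagus and genital ducts were compared with limma 3.58.1 (R 4.3.3) on log2(TPM + 1), with a mean-variance trend, for genes above 1 TPM in at least 2 of the 6 libraries, with Benjamini-Hochberg adjustment at 0.05. The pseudocount of 1 serves as the floor for the shallower genital duct libraries and understates the change of low genes. Calls were repeated after median-of-ratios scaling. Single values per library were compared by two-sided exact permutation tests over 20 splits. The fit was also run on simulated counts in which no library stood apart, so that run does not measure its error in these data. Alternatives covered the pseudocount, filter, scaling, samples in the fit, read pairs with voom, depth, a replicate block, each library left out and the list definitions. Each sample comes from a single individual, and replicates of a group differed by far more than sampling noise.

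Genes named were, in each direction, the 10 largest differences with non-overlapping values, the 5 most abundant called genes, the 3 largest differences among genes silent elsewhere, the longest run, and the most abundant called member of each marker list. At most 2 IDs per direction are printed, and a selection of the others is given by position. Abundant genes of all 6 libraries, members of the shared set, the pair of neighbours on chromosome 4, the broadly expressed gene on chromosome 1 and clusters beyond the longest run were chosen after their values were seen. The comparison and gene lists were chosen with earlier results of these data known. Python 3.11.15, numpy 2.4.6, pandas 2.3.3 and scipy 1.17.1 were used.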

Additional observations from a re-analysis of the deposited data

Results flagged for a closer look

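Part of the 32 genes shared by aedeagus 2 and genital ducts 4 also gave a signal in libraries that the comparison does not use. The summed level of the 32 was 47730.7 TPM in male malpighian tubules 3 and 27860.8 TPM in male malpighian tubules 4. In these, 22 and 21 of the 32 genes exceeded 10 times the highest female tubule value, and 7 were below 10 TPM in both. The third male library held 435 TPM, and the 3 female tubule libraries held 407 to 481 TPM.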

How the results depend on the processing

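Counts of genes higher in aedeagus and in genital ducts were 1352 and 2806. They became 849 and 1487 in a fit over all 47 tissue libraries, 700 and 844 with a replicate block, and 961 to 1416 and 1977 to 2522 when each library was left out in turn. In genital ducts the count also fell to 1678 after median-of-ratios scaling and 1589 with voom. No pairing was assumed, because it is not stated whether samples with the same number came from the same male. Replicates 4 of both tissues deviated with a correlation of -0.05 and replicates 5 of 0.39, and only these numbers are shared. Aedeagus 2 and genital ducts 4, which differ in number, reached 0.402, so these values do not settle the pairing. Samples with other numbers have no partner in a block, so its comparison within numbers rests on replicates 4 and 5. Fewer calls with the block therefore do not by themselves show a weaker effect.

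For marker genes of all 7 lists, the counts on TPM of 130 and 45 became 82 and 21 with the replicate block, 75 in aedeagus with a filter of 5 TPM, 77 and 23 at a median above 50 TPM, and 21 in genital ducts at tau above 0.90. For genes silent elsewhere, 121 and 75 became 71 and 27 with the block, 63 and 28 at 5 TPM, and 41 in genital ducts at a limit of 0.5 TPM. For broadly expressed genes, 138 and 1148 became 353 and 666 after rescaling, 353 and 645 with voom, 29 and 536 over 47 libraries, 29 and 331 with the block, 45 and 212 above 50 TPM, and 15 and 33 above 200 TPM (a limit chosen after seeing the data). After rescaling, the last 2 pairs were 136 and 143, and 52 and 26. With each library left out they ranged over 96 to 133 and 35 to 41 for markers, 102 to 117 and 52 to 75 for silent genes, and 78 to 186 and 852 to 1051 for broad genes. By list, hindgut markers went from 20 and 15 to 13 and 5 at tau above 0.90, tubule markers higher in aedeagus from 7 to 2 at that limit, ovary markers from 25 to 15 at a median above 50 TPM, and testes markers from 31 to 11 with the block and 56 over 47 libraries. Genes in runs in favour of genital ducts fell from 1285 to 386 at a difference of at least 1.

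The difference in genes detected was -165.67 above 10 TPM and 365 to 588 with each library left out, and that of the top 10 share was 4.29 to 9.10 percentage points. The summed marker differences, with each library left out, were 80879 to 127739 TPM for fat body, 373 to 512 for hemolymph, 2697 to 3834 for hindgut, -4405.3 to 5570.4 for malpighian tubules, 17.1 to 28.1 for midgut, 456 to 4053 for ovaries and -1104.6 to -327.8 for testes. The testes difference was 727.09 without its top gene. The ratio of distances between to within groups was 1.74, and 2.05 with Spearman correlation. The cause was not tested for any of these changes. Of 908 values of the 46 named genes under alternatives, 0 reversed and 63 lost the call. With 3 samples per tissue, exact permutation tests of single values cannot go below p = 0.10.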
